A study of Mus musculus with 21 samples.

Results

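Alpha-fetoprotein (Afp) and 6 other genes that are known as oncofetal, Gpc3, Ly6d, Golm1, Igf2bp1, Igf2bp3 and Lin28b, were followed across mouse liver tumours and livers. An oncofetal gene is active in the fetus, quiet in the adult organ and active again in tumours of it. The 7 genes were taken from the arrays by name, as every non-control probe that carried one of these names, which gave 9 of 39429 probes. Of the 7 genes, 6 had a probe well above background on 4 or more of 21 arrays and entered the tests, among 23733 genes in all. Igf2bp1 did not. No fetal liver was analysed here, so the fetal side of the label could not be checked.

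The series asked, by its title, what tumours arise in the liver once p53 is lost. It compared 4 groups of mice of the C57BL/6J background. The KO tumours (6 tumours of 5 mice) came from Trp53 knockout mice that had received no treatment, and carried a combined label of hepatocellular and cholangiocellular carcinoma (HCC/CCC). The DEN tumours (7 tumours of 5 mice, labelled HCC) came from mice with wild-type Trp53 that had been injected at day 15 with 10 µg per g of N-nitrosodiethylamine (DEN), a carcinogen of the liver. The KO livers (4 mice) came from untreated Trp53 knockout mice, and the WT livers (4 mice) from untreated mice with wild-type Trp53. The cells and exons in which Trp53 was deleted, the sexes and the ages at sampling do not appear in the sources used here.

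Alpha-fetoprotein is the main plasma protein of the fetus. It is made by yolk sac and fetal hepatocytes from a gene beside albumin, and in mice it is shut off after birth with the help of the repressors Zhx2 and Zbtb20. Glypican 3, encoded by Gpc3, is a heparan sulphate proteoglycan on the surface of fetal hepatocytes. Ly6d encodes a small surface protein held by a lipid anchor, known from B cell precursors and stratified epithelium. Golm1 encodes the Golgi membrane protein GP73, which furin cuts and cells release, and which in human liver is low in healthy hepatocytes and high in liver disease. Igf2bp1 and Igf2bp3 encode RNA-binding proteins of the IMP family that stabilise fetal transcripts, and Lin28b encodes an RNA-binding protein that blocks maturation of the let-7 microRNAs.

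Levels are log2 processed signals minus the 75th percentile of the array's non-control probes, so 0 marks that percentile, and a mean is given over mice, with the tumours of 1 mouse averaged first. Differences were tested with limma in 1 model for all genes, and adjusted p values are Benjamini-Hochberg values over the 23733 genes. The probe for the deleted gene, Trp53, gave -4.705 ± 0.465 (SD, n = 5) in KO tumours and -2.65 ± 0.11 (SD, n = 5) in DEN tumours, and -5.57 ± 0.75 (SD, n = 4) in KO livers and -3.57 ± 0.26 (SD, n = 4) in WT livers. It was lower in both knockout groups (adjusted p 2.16e-05 between tumours and 0.00131 between livers), although 5 of the 6 KO tumours and 1 of the 4 KO livers were still well above background. With slide as a random block the liver difference of -2.002 had an adjusted p of 0.28. Whether that probe lies in the deleted part could not be checked. The 75th percentile of processed intensity was 951 to 4258 in KO tumours, 512 to 884 in DEN tumours, 499.6 to 685 in KO livers, with 476 to 729 in WT livers, and KO tumours 4, 5 and 6, on the brightest slide, had 2045 and above. No slide held arrays of more than 1 group, and scan day 1 held KO tumours 1, 2 and 3, DEN tumours 1, 5 and 7 and all KO livers, while the WT livers had a slide and a scan day to themselves. All 9 hepatocyte markers were well above background on all 21 arrays, and their summed signal was 386 to 825 times the 75th percentile in KO tumours, 1240 to 2304 in DEN tumours, 2677 to 3127 in KO livers, with 2241 to 2713 in WT livers. Of the 6 bile duct markers 4 to 6 were well above background on each tumour and 3 to 5 on each liver, with sums of 42.4 to 241 in KO tumours, 6.38 to 34.2 in DEN tumours, 1.60 to 2.75 in KO livers, with 1.54 to 2.97 in WT livers. In bulk tissue, fewer cells of a type and less RNA per cell cannot be told apart.

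Afp and Gpc3 separated the tumour types, whereas Ly6d and Golm1 were high in both. Of the 6 tested genes, 2 (Afp and Gpc3) were lower in KO than in DEN tumours and none was higher, where 57.2% of all genes passed the test, 19.8% as higher and 37.4% as lower. Between KO tumours and KO livers 4 of the 6 (Afp, Gpc3, Ly6d and Golm1) were higher, where 51% of all genes passed, 21.5% as higher and 29.4% as lower. The same 4 genes were higher in DEN tumours than WT livers, where 21.4% of all genes passed, 10.5% as higher and 10.9% as lower. None of the 6 differed by the test between KO and WT livers, where 8.49% of all genes passed, 1.83% as higher and 6.66% as lower, and none had an unadjusted p under 0.05 there. The share of lower genes among all called genes moved with the scaling. It was 65.4% between KO and DEN tumours and 52.9% with normexp background correction and quantile scaling, and the median difference of all genes was -0.33 and -0.04. Relative to that median the difference of Afp was -5.49 and -5.39 under these scalings. Between KO tumours and KO livers that share was 57.8%, and 35.3% with the percentile taken over probes detected on all arrays, and between KO and WT livers it was 78.5%, and 65.5% with normexp.

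**Figure D1:**
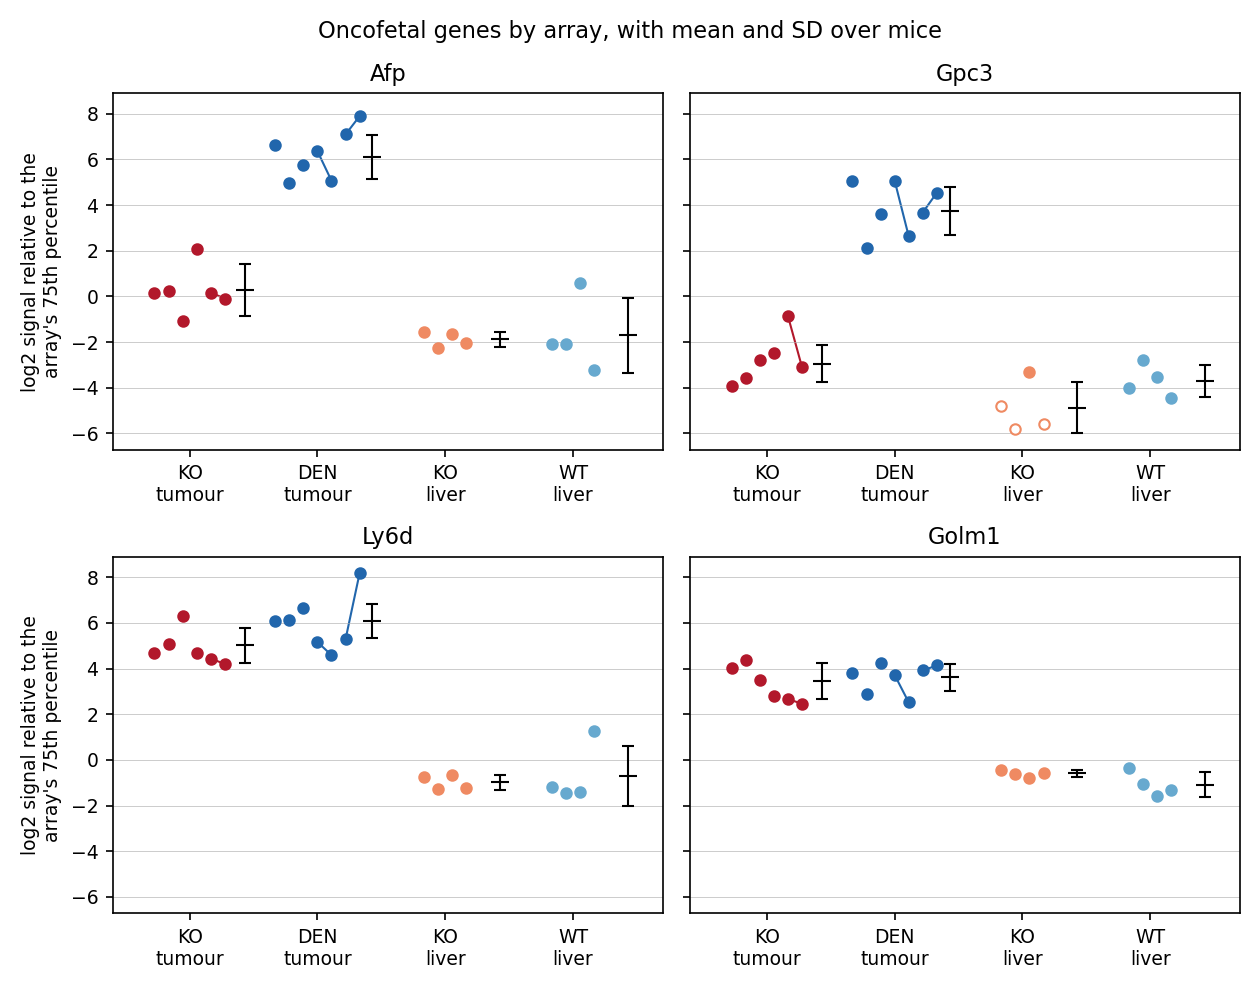
Each point is 1 array, in log2 signal relative to the array's 75th percentile (y axis), for Afp, Gpc3, Ly6d and Golm1. A line joins 2 tumours of 1 mouse, open points were not well above background, and the black marks are means with SD over mice. For Afp and Gpc3 the 7 DEN tumours lay above all other arrays, with Afp at up to 2.08 in KO tumours. Ly6d and Golm1 were high in all 13 tumours.

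The promoters of Afp and Gpc3, which both separated the tumour types, are shown because they have little in common in base composition. The 250 bases before each RefSeq start (build GRCm38.p6) are given 5′ to 3′ along the gene, Afp on the + strand at chr5:90490464-90490713 and Gpc3 on the - strand at chrX:52613975-52614224. Capitals mark matches, on either strand, to the HNF1 half-site GTTAA and the TATA box TATAAA in Afp, and to the GC box GGGCGG in Gpc3.
Afp: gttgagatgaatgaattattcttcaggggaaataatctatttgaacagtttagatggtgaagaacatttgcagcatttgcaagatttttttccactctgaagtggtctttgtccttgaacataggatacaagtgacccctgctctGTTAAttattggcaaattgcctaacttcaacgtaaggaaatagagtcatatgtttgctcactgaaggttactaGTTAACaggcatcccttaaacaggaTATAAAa
Gpc3: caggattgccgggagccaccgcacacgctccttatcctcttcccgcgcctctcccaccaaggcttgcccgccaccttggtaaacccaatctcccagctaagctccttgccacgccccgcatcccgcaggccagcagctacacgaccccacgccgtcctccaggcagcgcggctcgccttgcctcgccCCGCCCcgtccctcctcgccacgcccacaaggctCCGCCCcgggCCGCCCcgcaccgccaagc
The Afp window is 36% G and C, with 1 CpG, and the Gpc3 window 71.6%, with 25 CpGs, against a median of 52.4% over the 32851 promoters of the table. GTTAA matched Afp 3 times, and the 2 matches nearest to the start overlap on opposite strands. GTTAA was found in 21.7% of all promoters, and at least 2 matches in 5.33%. TATAAA, found in 12.4% of all promoters, lay 7 to 2 bases before the RefSeq start of Afp. Whether this match acts as a TATA box there was not tested. Gpc3 had 3 GC boxes, which 32.7% of all promoters hold at least once. The Golm1, Igf2bp3 and Lin28b windows held 65.6%, 60.4% and 39.2% G and C.

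Afp was measured by a 60-base probe at chromosome 5, 90937781 to 90937840 (mm9), near the end of its transcript, printed as 10 spots on each array. The spots of 1 array had an SD of 0.03 to 0.13. The 6 KO tumours had a lowest, median and highest level of -1.07, 0.16 and 2.08, against 4.97, 6.36 and 7.90 in the 7 DEN tumours. The ranges do not overlap, and the lowest DEN tumour exceeded the highest KO tumour. The 4 KO livers had -1.56, -2.26, -1.65 and -2.02, against -2.10, -2.09, 0.61 and -3.24 in the 4 WT livers. WT liver 3 stood above the others and reached into the range of the KO tumours.

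Means of Afp over mice were 0.29 ± 1.14 (SD, n = 5) in KO tumours and 6.11 ± 0.97 (SD, n = 5) in DEN tumours, a 56.7-fold lower level in KO tumours (log2 difference -5.82 ± 0.65 SE, adjusted p 3.72e-06, limma). The mice of the groups did not overlap for Afp and Gpc3, which held for 31.6% of all genes. Within scan day 1 the Afp difference was -6.76 (adjusted p 4.73e-05). DEN tumours exceeded WT livers, at -1.71 ± 1.63 (SD, n = 4), by 7.82 ± 0.69 SE (adjusted p 1.62e-06). KO tumours exceeded KO livers, at -1.87 ± 0.32 (SD, n = 4), by 2.16 ± 0.69 SE (adjusted p 0.0154), with no overlap. That smaller rise of Afp was lost with slide as a random block (2.24, adjusted p 0.165), with scan day as a block (1.65, adjusted p 0.0939) and without the brightest slide (1.65, adjusted p 0.0727), and it was 1.65 (adjusted p 0.0404) within scan day 1. The tumour effect itself differed between the types by -5.66 ± 0.98 SE (adjusted p 0.000663, and 0.0539 with the slide block), in a test that 30.8% of all genes passed.

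By level, Afp ran from DEN tumours through KO tumours to WT livers and KO livers. Neighbours at the low end did not separate: KO tumours overlapped WT livers, and KO livers differed from WT livers by -0.17 ± 0.73 SE (95% interval -1.71 to 1.38, adjusted p 0.921). KO tumour 4 had the highest Afp of its group, and also the largest hepatocyte marker sum of its group, 825, against 386 to 569 in the other KO tumours. Its bile duct marker sum was 125, within the 42.4 to 241 of the group. The part of these cell type markers in the Afp levels was not tested.

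Gpc3 had a probe at chromosome X, 49625740 to 49625799 (mm9, minus strand), that was well above background on 18 arrays, among them all 13 tumours. Its levels in KO tumours were -3.93, -2.94 and -0.85 (lowest, median, highest), against 2.13, 3.68 and 5.08 in DEN tumours. In KO livers they were -4.82, -5.81, -3.32 and -5.58, of which KO liver 3 alone was well above background, against -4.01, -2.80, -3.53 and -4.44 in WT livers. All DEN tumours lay above all other arrays, and KO tumours overlapped both kinds of liver.

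Mean Gpc3 was -2.95 ± 0.80 (SD, n = 5) in KO tumours and 3.75 ± 1.06 (SD, n = 5) in DEN tumours, 104-fold lower in KO tumours (log2 difference -6.70 ± 0.55 SE, adjusted p 2.62e-07, limma). Within scan day 1 it was -7.52 (adjusted p 6.47e-05). DEN tumours exceeded WT livers, at -3.70 ± 0.70 (SD, n = 4), by 7.45 ± 0.59 SE (adjusted p 5.18e-07). KO tumours exceeded KO livers, at -4.88 ± 1.12 (SD, n = 4), by 1.93 ± 0.59 SE (adjusted p 0.0116), where 1 of the 4 KO livers was well above background, so the size of this difference rests mostly on livers near background. This Gpc3 call was lost with normexp and quantile scaling (0.69, adjusted p 0.123), with the slide block (2.0, adjusted p 0.157), with scan day as a block (1.44, adjusted p 0.0939), within scan day 1 (1.44, adjusted p 0.111) and without the brightest slide (1.44, adjusted p 0.0781). The tumour effects differed by -5.52 ± 0.83 SE (adjusted p 0.000264). KO and WT livers differed by -1.18 ± 0.62 SE (95% interval -2.50 to 0.13, adjusted p 0.27).

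A second Gpc3 probe, for the transcript AK077942 at chromosome X, 49740892 to 49740951 (mm9), was well above background on KO tumour 5 alone, at -5.87. KO tumour 5 also had the highest Gpc3 of its group on the first probe. KO tumour 6, from the same mouse, slide and scan day, lay 2.23 lower on the first probe and 2.08 lower on the second, while Afp differed by 0.26 between them. In DEN mouse 4 the pair of tumours differed by 2.43 for Gpc3 and 1.29 for Afp, and in DEN mouse 5 by 0.87 and 0.80. The DEN pairs were split over slides and scan days. The SD between mice was 0.80 in KO tumours and 1.06 in DEN tumours for Gpc3, and 1.14 and 0.97 for Afp. A difference between 2 values and an SD are unlike measures, and the pairs were averaged before the SD was taken. Whether tumours of 1 mouse were more alike than tumours of different mice was not tested.

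**Figure D2:**
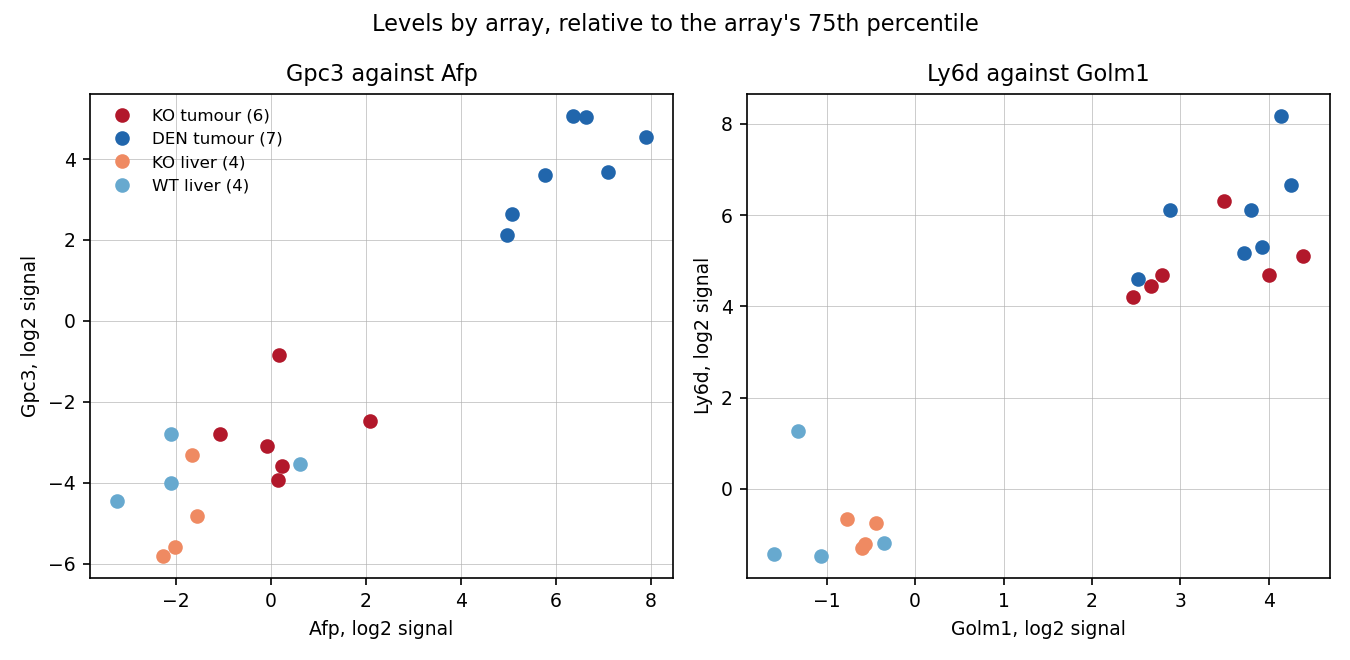
Each point is 1 array, with log2 signal relative to the array's 75th percentile on both axes, Gpc3 against Afp at the left and Ly6d against Golm1 at the right. At the left the 7 DEN tumours lie apart from all 14 other arrays, and at the right the 13 tumours lie apart from the 8 livers.

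Ly6d was read by a probe at chromosome 15, 74592551 to 74592610 (mm9, minus strand), well above background on all 21 arrays. KO tumours had 4.20, 4.69 and 6.31 (lowest, median, highest), against 4.59, 6.10 and 8.18 in DEN tumours. KO livers had -0.74, -1.29, -0.66 and -1.22, against -1.18, -1.47, -1.43 and 1.27 in WT livers. The tumour groups overlapped each other, and no tumour overlapped a liver.

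Mean Ly6d was 5.02 ± 0.77 (SD, n = 5) in KO tumours and -0.98 ± 0.32 (SD, n = 4) in KO livers, 64.0-fold higher in the tumours (6.00 ± 0.54 SE, adjusted p 2.52e-07, limma). In DEN tumours it was 6.10 ± 0.74 (SD, n = 5), against -0.70 ± 1.32 (SD, n = 4) in WT livers, 112-fold higher (6.80 ± 0.54 SE, adjusted p 5.11e-07). KO and DEN tumours differed by -1.08 ± 0.50 SE, with a 95% interval of -2.15 to -0.01, which did not pass the adjustment (adjusted p 0.0775). It passed without DEN mouse 4 (-1.39, adjusted p 0.0293), without KO tumour mouse 3 (-1.40, adjusted p 0.0251) and without WT mouse 4 (-1.08, adjusted p 0.0216), and was -0.93 (adjusted p 0.345) within scan day 1. The tumour effects differed by -0.80 ± 0.76 SE (95% interval -2.40 to 0.80, adjusted p 0.438).

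DEN tumours 6 and 7 of mouse 5, on different slides and scan days, differed by 2.89 in Ly6d. The SD between DEN mice, taken after pairs were averaged, was 0.74. DEN tumour 7 was the highest Ly6d of all arrays. DEN tumour 7 also had the highest sum of the stratified epithelium markers, 8.42, in groups that ranged from 2.32 to 5.55 in KO tumours, 4.47 to 8.42 in DEN tumours, 4.76 to 6.05 in KO livers, with 2.48 to 4.24 in WT livers. Of the 5 markers 2 to 5 were well above background on an array. Dsg3, a desmosomal cadherin of that epithelium, was so on 1 KO tumour, 2 DEN tumours and no liver. The other markers were also found in livers. Trp63 and Sfn were well above background on all 21 arrays. Krt5 was so on 4 KO tumours, 7 DEN tumours, 2 KO livers and 4 WT livers, and Krt14 on 5, 7, 3 and 4. WT liver 4, the highest liver for Ly6d, had a B cell marker sum of 7.64, against 1.197 to 1.654 in the other WT livers. That sum ran from 0.68 to 19.6 in KO tumours, 0.61 to 2.33 in DEN tumours and 0.76 to 0.94 in KO livers, with all 4 markers well above background on every array. KO tumour 5 had the largest B cell sum, 19.6, and a Ly6d level of 4.44, below the median of its group. The part of these cells in the Ly6d levels was not tested.

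Golm1 was read at chromosome 13, 59736466 to 59736525 (mm9, minus strand), and was well above background on all 21 arrays. KO tumours had 2.46, 3.15 and 4.39 (lowest, median, highest), against 2.53, 3.80 and 4.25 in DEN tumours. KO livers had -0.44, -0.60, -0.77 and -0.57, against -0.35, -1.07, -1.60 and -1.33 in WT livers. Every tumour exceeded every liver, and the tumour groups covered nearly the same range.

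Mean Golm1 was 3.45 ± 0.78 (SD, n = 5) in KO tumours and -0.59 ± 0.14 (SD, n = 4) in KO livers, 16.5-fold higher in the tumours (4.05 ± 0.38 SE, adjusted p 3.59e-07, limma). It was 3.62 ± 0.59 (SD, n = 5) in DEN tumours and -1.09 ± 0.54 (SD, n = 4) in WT livers, 26.1-fold higher (4.71 ± 0.38 SE, adjusted p 5.53e-07). The mice did not overlap between KO tumours and KO livers for 3 of the 6 tested genes (Afp, Ly6d and Golm1), and for 42.6% of all genes. Between DEN tumours and WT livers they did not overlap for 4 of the 6, and for 23.9% of all genes. Between KO and WT livers all 6 overlapped, and 28% of all genes did not. The tumour types differed by -0.17 ± 0.35 SE (95% interval -0.92 to 0.58, adjusted p 0.704). The sign of that difference turned with the scaling (0.22 with normexp and quantile scaling, 0.02 with the percentile over probes detected on all arrays) and within scan day 1 (0.48). The tumour effects differed by -0.66 ± 0.53 SE (95% interval -1.78 to 0.46, adjusted p 0.359), and the livers by 0.49 ± 0.40 SE (95% interval -0.34 to 1.33, adjusted p 0.501).

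**Figure D3:**
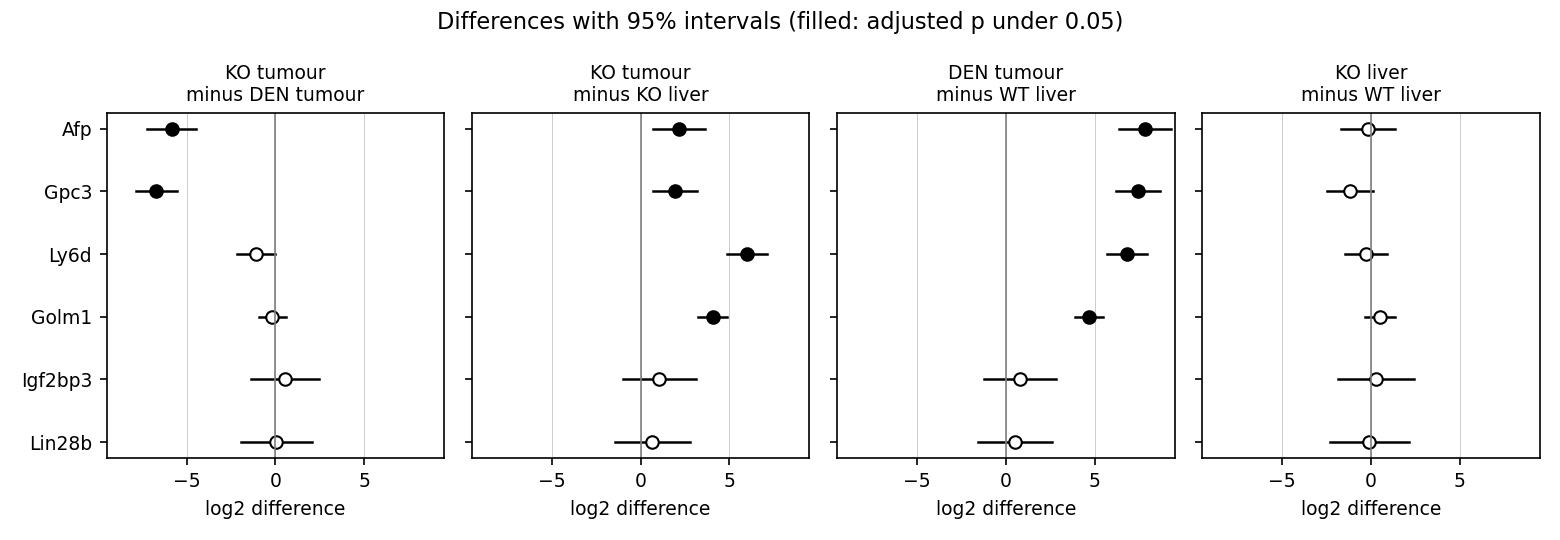
Log2 differences (x axis) of the 6 tested genes in 4 comparisons, with 95% intervals from the limma model, filled where the adjusted p over all genes was under 0.05. Afp and Gpc3 lie at -5.82 and -6.70 between the tumour types, where the intervals of Golm1, Igf2bp3 and Lin28b span 0. No gene passed between the livers.

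The RNA-binding members were not well above background on most arrays. Igf2bp1 (chromosome 11, 95824526 to 95824585, mm9) was not well above background on any of the 21 arrays, with processed intensities of 2.16 to 18.03 in KO tumours, 1.93 to 4.92 in DEN tumours, 4.24 to 7.63 in KO livers, with 3.48 to 6.75 in WT livers. It was not tested, and no fold is given. Depth is not defined for an array, and the number of arrays and the background limit what these probes can show.

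Igf2bp3 (chromosome 6, 49035710 to 49035769, mm9) was well above background on 4 arrays, all of them tumours. These were KO tumours 2 and 4, at -4.66 and -1.47, and DEN tumours 2 and 4, at -4.59 and -3.67. The other 4 KO tumours lay at -7.93 to -6.82 and the other 5 DEN tumours at -7.87 to -6.01. KO livers had -6.69, -6.35, -6.24 and -7.12, against -6.75, -6.97, -6.62 and -7.22 in WT livers, none of them well above background. KO tumour 4, the highest, had a processed intensity of 741. In DEN mouse 4, tumours 4 and 5 had Igf2bp3 levels of -3.67 and -6.33. No comparison passed: KO and DEN tumours differed by 0.54 ± 0.91 SE (95% interval -1.38 to 2.45, adjusted p 0.632), KO tumours and KO livers by 1.06 ± 0.96 SE (adjusted p 0.374), and DEN tumours and WT livers by 0.81 ± 0.96 SE (adjusted p 0.61).

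Lin28b was represented by 2 probes on the same transcript, starting at its bases 376 and 5300 (chromosome 10, 45140412 to 45140471 and 45096468 to 45096527, mm9). The probe near the 3′ end was well above background on 5 arrays, again all of them tumours. KO tumours 1 and 3 had -2.39 and -5.32 there, and DEN tumours 3, 4 and 6 had -3.07, -5.44 and -5.63. The probe near the 5′ end was well above background on DEN tumour 4, at -6.15, and on WT liver 3, at -2.69. Only DEN tumour 4 was thus above background on both, and the 2 brightest tumours on the 3′ probe were at -7.13 (KO tumour 1) and -7.69 (DEN tumour 3) on the 5′ probe, not well above background.

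On the 3′ probe of Lin28b, KO and DEN tumours differed by 0.05 ± 0.94 SE (95% interval -1.94 to 2.04, adjusted p 0.969), KO tumours and KO livers by 0.65 ± 0.997 SE (adjusted p 0.607), and DEN tumours and WT livers by 0.52 ± 0.997 SE (adjusted p 0.773). Within scan day 1, where KO tumours 1 and 3 were above background and DEN tumours 1, 5 and 7 were not, the difference between tumour types passed (adjusted p 0.0474), but its size was not measured, and KO tumour 2 was not above background either. Without KO tumour mouse 1 the difference was -0.87 (adjusted p 0.344). KO tumours 1 and 3 held Lin28b and KO tumours 2 and 4 held Igf2bp3 signal above background, and DEN tumour 4 alone held both.

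**Figure D4:**
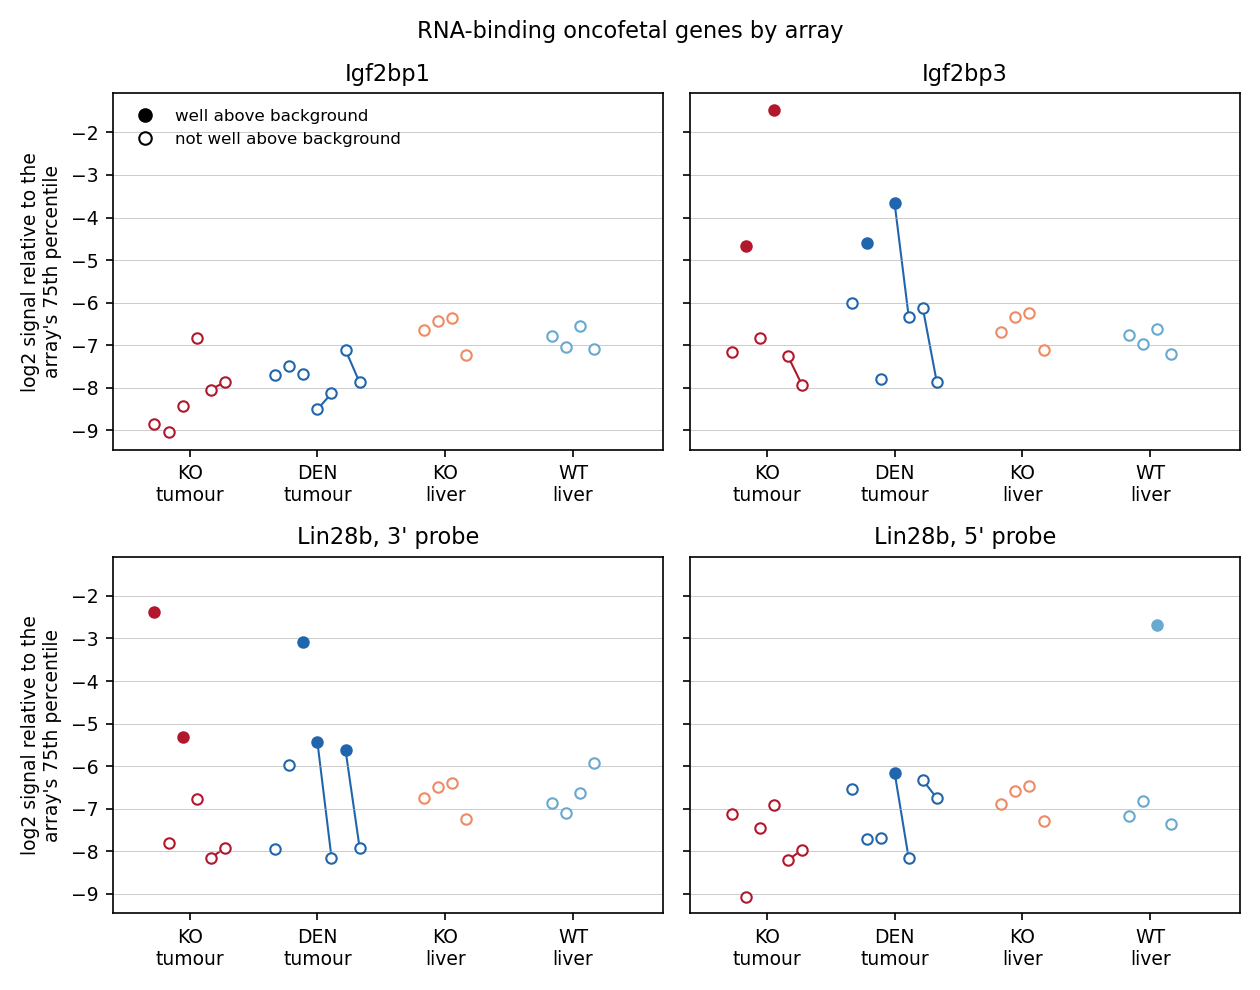
Each point is 1 array, in log2 signal relative to the array's 75th percentile (y axis), filled where the probe was well above background, for Igf2bp1, Igf2bp3 and both Lin28b probes. A line joins 2 tumours of 1 mouse. Filled points are single tumours at -6.15 to -1.47, apart from 1 WT liver on the 5′ probe of Lin28b at -2.69.

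Across the 18 mice the levels of Afp and Gpc3 had a Pearson r of 0.949 and those of Ly6d and Golm1 of 0.950, while Afp and Ly6d had 0.750 and Gpc3 and Golm1 0.642. These values describe groups that lie apart and share arrays and scaling, and have no p. Igf2bp3 and Lin28b had an r of -0.26 with each other and of at most 0.26 with the other 4 genes. Among 15050 other genes, those most like Afp were Pold4 (0.970), a subunit of DNA polymerase delta, Mlkl (0.950), the effector of necroptosis, and Akr1c18 (0.945), a progesterone-inactivating reductase, where the gene at rank 1000 had 0.592. Akr1c18 averaged -2.07 in KO tumours and 5.52 in DEN tumours, and -2.71 in KO livers and -2.66 in WT livers. Most like Gpc3 were Bex2 (0.971), Mitd1 (0.946) and Erich4 (0.939), with 0.600 at rank 1000.

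Most like Ly6d were Pygb (0.964), the brain isoform of glycogen phosphorylase, Arhgap22 (0.961) and Lcn2 (0.959), a secreted siderophore-binding protein, with 0.725 at rank 1000. Most like Golm1 were the cell cycle inhibitor Cdkn2b (0.985), the tetraspanin Tspan8 (0.984) and Sccpdh (0.978), with 0.744 at rank 1000. Cdkn2b averaged 1.21 in KO tumours and 2.08 in DEN tumours, and -3.08 in KO livers and -2.92 in WT livers. For Igf2bp3 the nearest genes were Tmem145 (0.80), Dhrs13 (0.746) and Csta2 (0.741), with 0.341 at rank 1000. For Lin28b they were Mypop (0.823), Ppp1r32 (0.764) and Rhox2h (0.763), with 0.403 at rank 1000. Igf2bp3 and Lin28b were well above background on 4 and 5 of the 21 arrays, so most values behind these r were near background.

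Afp belongs to the albumin gene family. All 3 other members were lower in KO than in DEN tumours (median -2.30, against -0.33 over all genes), where 37.4% of all genes were. They were also lower in KO tumours than KO livers (median -2.94, against -0.22), where 29.4% of all genes were. None passed between DEN tumours and WT livers, where 21.4% of all genes did. Alb, the neighbouring albumin gene, averaged 7.02 ± 1.24 in KO tumours and 9.32 ± 0.29 in DEN tumours (SD, n = 5 each), a difference of -2.30 ± 0.415 SE (adjusted p 0.000231), and Afm, encoding afamin, differed by -5.04 ± 0.765 SE (adjusted p 5.32e-05). Between DEN tumours and WT livers Afp differed by 7.82 and Alb by -0.26 ± 0.44 SE (adjusted p 0.736). Gc, the vitamin D-binding protein gene, was lower in KO than in DEN tumours by -1.45 ± 0.20 SE (adjusted p 2.39e-05), and its call between KO tumours and KO livers (-1.53 ± 0.21 SE, adjusted p 1.64e-05) was lost with normexp and quantile scaling (-0.35, adjusted p 0.0599).

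Of 12 regulators of Afp, 5 were lower and none higher in KO than in DEN tumours, where 37.4% of all genes were lower. Their median there was -0.30, against -0.33 over all genes. Trp53, the deleted gene, is on this list and was among the 5, so that call cannot be separated from the genotype. In KO tumours 2 were higher and 6 lower than in KO livers, where 21.5% of all genes were higher and 29.4% lower. In DEN tumours 1 was higher and 2 lower than in WT livers, where 10.5% and 10.9% were. Trp53 was among those higher in KO tumours than KO livers (0.87), and was the 1 higher in DEN tumours than WT livers (0.92). The 2 lower in DEN tumours than WT livers were Zbtb20 and Cebpa. Cebpa differed by -1.78 ± 0.32 SE there (adjusted p 0.000889, and 0.0696 with the slide block), where Afp was higher. In KO tumours Cebpa was lower than in KO livers by -2.08 ± 0.32 SE (adjusted p 4.6e-05). The activator Hnf4a averaged 4.19 ± 0.99 in KO tumours and 6.41 ± 0.27 in DEN tumours (SD, n = 5 each), a difference of -2.22 ± 0.34 SE (adjusted p 5.9e-05), and Foxa3, another liver activator, one of -1.95 ± 0.38 SE (adjusted p 0.000416). The postnatal repressor Zbtb20 was lower in DEN tumours, at 1.06 ± 0.28 (SD, n = 5), than in WT livers, at 2.83 ± 0.16 (SD, n = 4), by -1.76 ± 0.22 SE (adjusted p 4.19e-05). It was also lower in KO tumours than KO livers by -0.55 ± 0.22 SE (adjusted p 0.0481), a call lost with normexp (-0.22, adjusted p 0.407) and with the percentile over probes detected on all arrays (-0.10, adjusted p 0.773). Between KO and DEN tumours Zbtb20 did not pass (0.32 ± 0.21 SE, adjusted p 0.2). It was lower in KO than in WT livers by -0.90 ± 0.23 SE (adjusted p 0.0258), where Afp did not differ by the test (adjusted p 0.921). The tumour effects on Zbtb20 differed by 1.22 ± 0.31 SE (adjusted p 0.00817). Zhx2, the other postnatal repressor, did not pass in any comparison of tumours (0.56 ± 0.28 SE between the tumour types, adjusted p 0.0903), at levels of -4.56 in KO tumours and -5.12 in DEN tumours. Zfhx3, a repressor of human AFP, did not either (0.38 ± 0.22 SE, adjusted p 0.146).

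Among the other glypicans, 4 of 5 were tested, and 1 was higher and 2 lower in KO than in DEN tumours (median -0.23, against -0.33 over all genes), where 57.2% of all genes passed. Between the tumour types Gpc1 had the opposite sign to Gpc3: it averaged 4.17 ± 0.50 in KO tumours and 0.14 ± 0.70 in DEN tumours (SD, n = 5 each), a difference of 4.03 ± 0.305 SE (adjusted p 1.31e-07), and exceeded KO livers by 5.66 ± 0.32 SE (adjusted p 1.14e-08). Between DEN tumours and WT livers Gpc1 differed by -0.73 ± 0.32 SE (adjusted p 0.123), and in KO livers it was lower than in WT livers by -2.36 ± 0.34 SE (adjusted p 0.000701, and 0.285 with the slide block). Gpc4, beside Gpc3 on the X chromosome, was lower in KO than in DEN tumours by -1.14 ± 0.23 SE (adjusted p 0.00058), and did not pass between DEN tumours and WT livers (0.56 ± 0.24 SE, adjusted p 0.114).

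Of the Ly6 family, 12 of 13 listed genes were found on the arrays and 11 were tested, of which 5 were higher and 1 lower in KO tumours than KO livers, and 2 higher in DEN tumours than WT livers. Of all genes, 51% and 21.4% passed there. The family's medians were 0.62 and 0.57, against -0.22 and 0.04 over all genes. Slurp1, a secreted Ly6 protein, was well above background on all 6 KO tumours, 2 of 7 DEN tumours and no liver. It was at least 25.0-fold higher in KO tumours than KO livers (adjusted p 2.17e-05) and 6.15 ± 0.87 SE above DEN tumours (adjusted p 2.9e-05), of which 5 of 7 were not well above background. Ly6e was higher in both tumour types, by 1.01 ± 0.25 SE over KO livers (adjusted p 0.00245) and 1.43 ± 0.25 SE over WT livers (adjusted p 0.000623). Ly6a, known as Sca-1, exceeded KO livers by 2.22 ± 0.52 SE in KO tumours (adjusted p 0.00175). With the slide block these calls of Ly6e (adjusted p 0.0776 and 0.0777) and Ly6a (adjusted p 0.0544) were lost.

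Golm1 was set beside 14 other genes of the Golgi. Of these, none was higher and 7 were lower in KO than in DEN tumours, where 19.8% and 37.4% of all genes were. Their median there was -0.69, against -0.33 over all genes. Between KO tumours and KO livers 1 was higher and 6 were lower, where 21.5% and 29.4% of all genes were. In DEN tumours 1 was higher and none lower than in WT livers, where 10.5% and 10.9% of all genes were. That gene, Golm2, the paralogue of Golm1, was higher in DEN tumours than WT livers by 1.49 ± 0.36 SE (adjusted p 0.00734, and 0.207 with the slide block), and was also the 1 gene higher in KO tumours than KO livers, by 1.99 ± 0.36 SE (adjusted p 0.000217), where 2 of the 4 KO livers were well above background. Golm2 averaged -2.38 in KO tumours, -4.38 in KO livers and -2.57 in WT livers. It was lower in KO than in WT livers by -1.80 ± 0.38 SE (adjusted p 0.00986). That call was lost with normexp (-0.76, adjusted p 0.104) and with the slide block (adjusted p 0.584). The stacking protein gene Gorasp1 was lower in KO than in DEN tumours by -1.27 ± 0.185 SE (adjusted p 3.87e-05).

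Of 8 genes around let-7 and the IMP proteins, 3 were higher and 2 lower in KO than in DEN tumours, 4 were higher in KO tumours than KO livers, and 2 were higher and 1 lower in DEN tumours than WT livers. Of all genes, 57.2%, 51% and 21.4% passed in these comparisons. The list's medians were -0.11, 0.58 and 0.65, against -0.33, -0.22 and 0.04 over all genes. Hmga2, a let-7 target, was well above background on 4 of 6 KO tumours, 3 of 7 DEN tumours and no liver, with means of -4.88 ± 0.28 in KO tumours and -5.94 ± 0.64 in DEN tumours (SD, n = 5 each; difference 1.06 ± 0.28 SE, adjusted p 0.00384, and 0.102 with the slide block). Mycn was at least 4.06-fold higher in KO tumours than KO livers (adjusted p 0.000113). In KO livers, however, it was also at least 1.68-fold lower than in WT livers (adjusted p 0.0309). Mycn averaged -2.69 in KO tumours, -2.75 in DEN tumours and -3.96 in WT livers. Lin28a, the paralogue of Lin28b, was lower in KO than in DEN tumours by -1.94 ± 0.44 SE (adjusted p 0.00145). Igf2bp2, the adult IMP gene, was lower in KO than in DEN tumours by -0.83 ± 0.28 SE (adjusted p 0.0196), a call lost within scan day 1 (-0.72, adjusted p 0.147) and with normexp (-0.10, adjusted p 0.318).

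Of 14 further oncofetal genes, 9 were higher and none lower in KO tumours than KO livers, where 21.5% and 29.4% of all genes were. In DEN tumours 8 were higher and none lower than in WT livers, where 10.5% and 10.9% of all genes were. The medians were 3.14 and 1.63, against -0.22 and 0.04 over all genes. Between the tumour types 4 were higher and 3 lower in KO tumours, where 19.8% and 37.4% of all genes were. Like Ly6d and Golm1, the surface protein genes Tspan8 and Igdcc4 and the imprinted RNA H19 were high in both: Tspan8 by 6.58 ± 0.555 SE over KO livers and 8.33 ± 0.555 SE over WT livers, H19 by 6.38 ± 1.36 SE and 6.76 ± 1.36 SE, and Igdcc4 at least 27.8-fold over KO livers and by 6.6 ± 0.53 SE over WT livers, of which 1 of 4 was well above background (adjusted p 0.00205 or less in all). With the slide block the H19 difference between DEN tumours and WT livers had an adjusted p of 0.0876. Igf2, imprinted beside H19, did not pass between the tumour types (0.37 ± 0.85 SE, adjusted p 0.731), nor against either liver, and a second H19 probe differed by -0.12 between KO tumours and KO livers and by 0.05 between DEN tumours and WT livers. Cd24a and Cd44, surface markers of progenitor cells, were higher in KO than in DEN tumours by 3.96 ± 0.53 SE (adjusted p 1.8e-05) and 3.46 ± 0.35 SE (adjusted p 1.31e-06). Other Cd44 probes gave smaller differences there, of 0.61, 1.58 and 2.95. In that order they gave 1.29, 2.23 and 4.05 between KO tumours and KO livers. Between DEN tumours and WT livers they gave 1.77, -0.38 and 1.41. Peg10, an imprinted gene derived from a retrotransposon, was not well above background on any KO tumour and at least 3.18-fold higher in DEN tumours (adjusted p 0.000568), and the trypsin inhibitor gene Spink1 was lower in KO tumours by -3.29 ± 0.91 SE (adjusted p 0.00545).

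**Figure D5:**
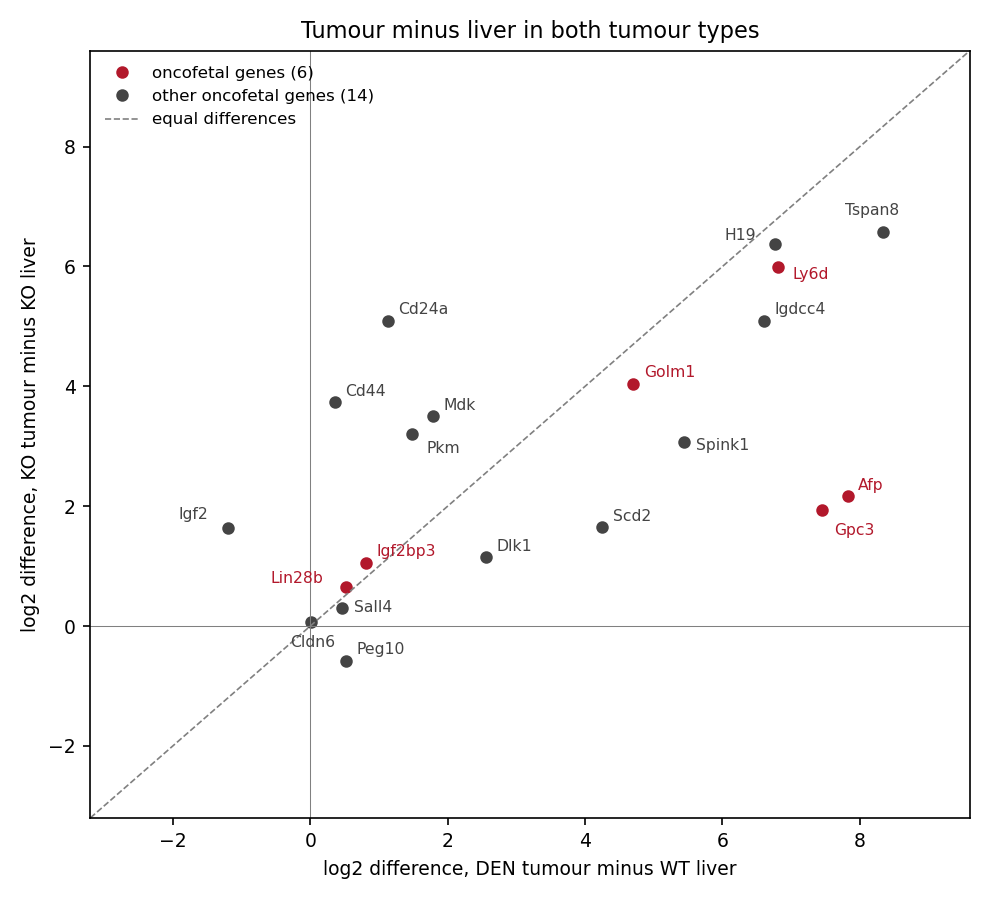
Log2 differences between DEN tumours and WT livers (x axis) and between KO tumours and KO livers (y axis) for the 6 tested genes (red) and the 14 further oncofetal genes (grey), with a dashed line of equal differences. Afp (7.82 and 2.16) and Gpc3 (7.45 and 1.93) lie far below the line, Ly6d and Golm1 close to it, and Cd24a and Cd44 above it. Each gene is shown by its brightest probe.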

How the data were processed

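Total RNA of 21 samples was measured on Agilent arrays of 1 colour (Cy3). Per the file headers, the deposited intensity values were made by Agilent Feature Extraction 10.7.3.1, which subtracts background, on a design with mm9 coordinates. The authors also deposited a table of log2 values, whose scale and centring were checked against the arrays and which served as an alternative. Processed intensity was taken as log2 minus the array's 75th percentile over 39429 non-control probes, after outlier spots were removed. Probes well above background on at least 4 arrays were kept, and each gene was represented by its brightest probe on average.

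In tumour titles, the number before the letter T was taken for the mouse, which gave 18 mice. Each liver was counted as 1 mouse by the number in its title. No label states this, so the p values set group differences against the spread between mice that were inferred from titles. Group means were fitted with limma 3.58.1 in R 4.3.3 with statmod 1.5.0, and the fit was tested on simulated data. Slides hold 1 group each, so slide entered as a random block (correlation 0.358). Other alternatives changed the background correction, the scaling, the filter, the probe choice, the scan day and the mice. The named genes were all 7 genes, the 3 most alike per gene, and in each list up to 3 higher and 3 lower by adjusted p, with some regulators and relatives always named. The genes and lists were chosen with earlier results of these data known. Names were updated and promoters taken from RefSeq tables of GRCm38.p6.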

Additional observations from a re-analysis of the deposited data

Results flagged for a closer look

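Among the 7 genes, single samples were compared with the rest of their group by Dixon's test, which chance passes in about 1 in 20 groups. The test was run for each of the 9 probes in every group of arrays, and only the values below were flagged. That is about the number of flags that chance alone gives over so many tests. Ly6d in WT liver 4 was at 1.27, far above the other 3 WT livers. The 5′ probe of Lin28b in WT liver 3 was at -2.69, also far above the others, and the 3′ probe of Lin28b was not well above background there.

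The tumour effect, KO tumours minus KO livers set against DEN tumours minus WT livers, differed between the types for Afp by -5.66 and for Gpc3 by -5.52, in a test of that difference in the limma model (adjusted p 0.000663 and 0.000264).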

How the results depend on the processing

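No paired analysis was possible because no label ties a tumour to a liver, and the replicate numbers follow the order of the samples. Of 864 alternative values for the 30 results on the 6 tested genes, 817 kept direction and side of the threshold, 9 lost the call, 5 gained one and 33 changed sign.

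With slide as a random block, 8968 genes passed between KO and DEN tumours (13583 without it), 6626 between KO tumours and KO livers (12096), 530 between DEN tumours and WT livers (5089), 19 between KO and WT livers (2014) and 875 for the difference of the tumour effects (7320). That block left 2 of the 6 genes higher in KO tumours than KO livers and 1 with different tumour effects. Scan day as a block and leaving out the brightest slide also left 2 higher in KO tumours than KO livers. Without that slide 3221 genes passed between the livers. Leaving out 1 mouse at a time gave 12506 to 14130 genes between KO and DEN tumours, 10710 to 12822 between KO tumours and KO livers, 3633 to 5817 between DEN tumours and WT livers, 659 to 2389 between the livers and 5998 to 8585 for the difference of effects, and 2 to 3 of the 6 genes between KO and DEN tumours.

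Signs turned only in differences that did not pass. Between KO and DEN tumours Golm1 gave 0.22 with normexp, 0.018 with the percentile over probes detected on all arrays, 0.48 with scan day as a block and within scan day 1, and 0.35 without the brightest slide, Igf2bp3 gave -0.14 without that slide, and Lin28b gave -0.089 with each tumour as its own sample. Igf2bp3 gave -0.046 between the livers with normexp, and for the difference of effects -0.12 with each tumour as its own sample and -0.43 without the brightest slide, where Lin28b gave -0.0024 with each tumour as its own sample. Over the fits without 1 mouse, Afp ran from -0.68 to 0.60 and Ly6d from -0.53 to 0.38 between the livers, and Golm1 from -0.40 to 0.054 and Igf2bp3 from -0.48 to 1.05 between KO and DEN tumours, with -0.77 to 0.76 for the Igf2bp3 difference of effects. Lin28b ran from -0.87 to 0.81 between KO and DEN tumours, -0.27 to 1.15 between KO tumours and KO livers, -0.24 to 0.98 between DEN tumours and WT livers, -0.24 to 0.15 between the livers and -0.78 to 0.90 for the difference of effects. Causes of these changes were not tested. Fits by scan day give no comparison with the WT livers, which were alone on their slide and scan day, so slide, day and group cannot be told apart there. Igf2bp1, Igf2bp3 and Lin28b were near background on most arrays.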
